A study of Homo sapiens with 80 samples.

Results

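The small leucine-rich proteoglycans are a family of matrix genes, and 9 of them were followed through cardiomyocyte differentiation of human pluripotent stem cells: LUM (lumican), FMOD (fibromodulin), PRELP, KERA (keratocan), OMD (osteomodulin), DCN (decorin), BGN (biglycan), ASPN (asporin) and OGN (osteoglycin). They are 9 of the 43388 genes in each expression table. They were listed by name as matrix genes of stroma that were high in wells of low cardiomyocyte purity, so their high against low purity differences in the multi-omic experiment chose them and are given below as a description with no test. Earlier results of these data were known when the list was made. The class differences of the RNA-only experiment are therefore not independent of the choice either, and their p-values carry that limit. All 9 were present in both tables.

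Cells were treated with CHIR99021, an activator of WNT signalling, and then with IWP2, which blocks the release of WNT proteins. High and low purity are classes of whole differentiations, set on day 16 from the cells that stained for cardiac troponin T in flow cytometry. The multi-omic experiment used WTC11, an induced pluripotent stem cell line, and stranded poly(A) libraries. Its 25 high purity libraries were wells of a single differentiation started at passage 52, and its 31 low purity libraries were wells of another one started at passage 69. There were 4 wells of each class on days 0, 2, 4 and 6, 3 high and 4 low on day 8, 1 and 4 on day 10, 2 and 4 on day 13, and 3 and 3 on day 16. Purity, passage and differentiation cannot be told apart in it, and a p-value over its wells measures only the spread inside a differentiation. In the RNA-only experiment there were total RNA libraries, 1 per stage, from 6 differentiations: H9, an embryonic stem cell line, low at passage 55 and high at passage 58; IMR90-4, an induced line, high at passage 55 and low at passage 75; and WTC11, low at passage 69 and high at passage 81. Its 4 stages were day 0 (stage 1), days 2 to 3 (stage 2), days 4 to 5 (stage 3) and days 6 to 7 (stage 4). Depth was 6591851 to 18180381 reads per multi-omic library and 17990882 to 40357968 reads per RNA-only library.

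Small leucine-rich proteoglycans are secreted proteins whose curved core of leucine-rich repeats lies along collagen fibrils and sets their width and spacing. Decorin and biglycan carry chondroitin or dermatan sulfate chains, lumican, fibromodulin, keratocan, PRELP and osteomodulin belong to the class in which keratan sulfate chains are common, and osteoglycin stands in a class apart. Several also bind transforming growth factor beta or receptors of innate immunity. In the heart they are mainly products of fibroblasts and of cells derived from the epicardium, and little of them is made by cardiomyocytes.

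The 9 genes lie in 4 places (RefSeq positions on GRCh38). KERA, LUM and DCN are neighbours on chromosome 12, on the minus strand: KERA at chr12:91050491-91058024, LUM at chr12:91102629-91111494 and DCN at chr12:91140484-91182817. FMOD at chr1:203340628-203351122 on the minus strand and PRELP at chr1:203475806-203491352 on the plus strand are 124.7 kb apart. BGN is alone at chrX:153494980-153509546 on the plus strand. OGN at chr9:92383268-92404699, OMD at chr9:92412380-92424471 and ASPN at chr9:92456205-92482506 form a run on the minus strand, followed by their relative ECM2 11.0 kb further on. The whole run lies inside CENPP (chr9:92325468-92620529), a centromere protein gene on the plus strand, and 0 GENCODE exons of the 3 members overlapped an exon of CENPP. Whether strand was used in counting is not given in the sources used here, so reads from the opposite strand, such as those of CENPP introns, cannot be told apart from reads of the 3 members.

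The 250 bases before the RefSeq start of OGN and ASPN are shown because these neighbours had like courses in the wells, and those of PRELP because its window, like theirs, holds no GENCODE exon. They are from RefSeq, GRCh38.p14, on the gene's own strand. Capitals mark matches, on either strand, to 6 motifs: the TATA box motif TATAAA, the E-box motif CANNTG, the GC box motif GGGCGG, the GATA factor motif GATAAG, the SMAD core motif CAGAC and the NF-Y motif CCAAT. No motif is part of another. OGN is chr9:92404700-92404949, ASPN is chr9:92482507-92482756 and PRELP is chr1:203475556-203475805. A window of another OGN start, chr9:92404579-92404828, overlaps a GENCODE exon of OGN and is not shown.
OGN: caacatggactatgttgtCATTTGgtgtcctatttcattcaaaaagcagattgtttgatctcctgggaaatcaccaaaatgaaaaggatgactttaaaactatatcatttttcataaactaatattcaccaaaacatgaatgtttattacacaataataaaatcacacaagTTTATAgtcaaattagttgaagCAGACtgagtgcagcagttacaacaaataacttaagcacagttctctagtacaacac
ASPN: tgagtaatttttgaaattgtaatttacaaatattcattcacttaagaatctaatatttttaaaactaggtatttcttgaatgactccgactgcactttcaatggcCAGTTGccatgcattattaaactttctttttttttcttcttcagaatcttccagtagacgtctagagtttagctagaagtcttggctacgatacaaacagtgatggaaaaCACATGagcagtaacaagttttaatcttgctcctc
PRELP: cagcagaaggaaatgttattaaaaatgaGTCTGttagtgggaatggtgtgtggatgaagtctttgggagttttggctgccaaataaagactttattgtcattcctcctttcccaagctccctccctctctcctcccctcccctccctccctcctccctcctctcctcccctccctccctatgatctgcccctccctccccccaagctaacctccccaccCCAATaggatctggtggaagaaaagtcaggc
The window of OGN held 1 TATAAA, 1 CANNTG and 1 CAGAC, that of ASPN held 2 CANNTG, and that of PRELP held 1 CCAAT and 1 CAGAC. Of 35116 RefSeq windows of this length, 10.7% held TATAAA, 61.8% CANNTG, 32% CCAAT, 38% CAGAC, 42.6% GGGCGG and 5.65% GATAAG. GC content was 31.2% in OGN and 32.4% in ASPN, below the median of 58.0% over all windows, and 52.8% in PRELP. A match describes the letters of the window and is no evidence of binding.

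**Figure D1:**
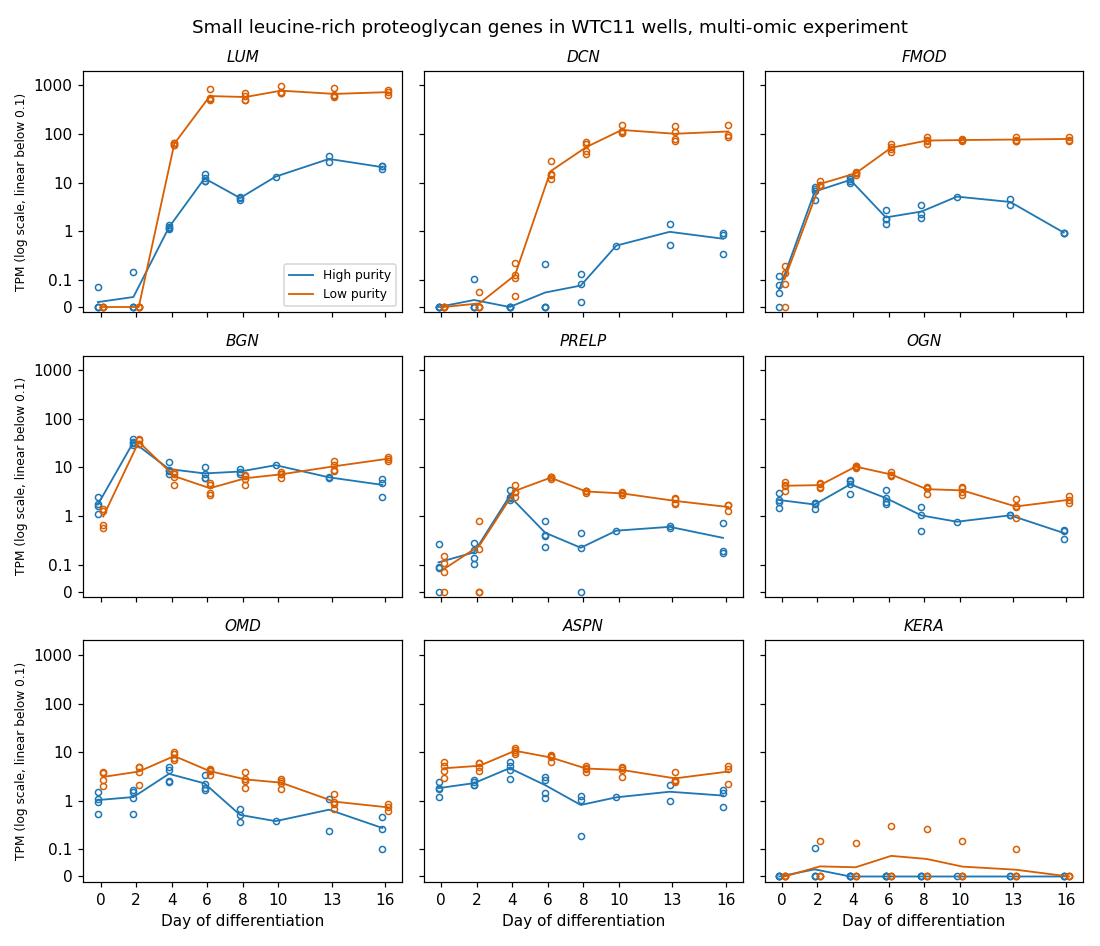
Level of each of the 9 genes in the multi-omic WTC11 wells, in TPM, the share of transcripts scaled by length and depth (log scale, linear below 0.1) against day; each circle is a well and each line joins the class means (blue high purity, orange low purity). On day 16 LUM is 34.8-fold, DCN 160-fold and FMOD 84.0-fold higher in low purity wells, BGN peaks on day 2 in both, OGN, OMD and ASPN peak on day 4 in both, and KERA stays at or near 0.

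LUM, whose core protein spaces collagen fibrils and keeps the cornea clear, had the highest level of the family. No read of LUM was found in any low purity well on days 0 and 2, where 3 reads would be 0.306 to 0.4998 TPM and 0.422 to 0.461 TPM, and the high purity wells held at most 2 reads. On day 4 LUM was at 60.6, 66.1, 60.5 and 66.1 TPM in the 4 low purity wells and at 1.18, 1.33, 1.11 and 1.21 TPM in the 4 high purity wells. The classes did not overlap, and within a class the wells lay close together. On day 6 the low purity wells held 545, 490.1, 519 and 859 TPM and the high purity wells 11.0, 14.8, 12.6 and 10.7 TPM. On day 16 the values were 814, 647 and 720.4 TPM against 19.1, 21.8 and 21.7 TPM, again with no overlap. The high minus low difference, on the scale of log2(scaled TPM + 1) with the standard error (SE) of the limma fit over wells, was -4.83 (SE 0.132) on day 4, -4.20 (SE 0.162) on day 13 and -4.85 (SE 0.153) on day 16. In bulk RNA, fewer cells of a type and less RNA per cell cannot be told apart, and this holds for every difference below.

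FMOD, which binds type I collagen beside lumican and is abundant in tendon, was at like levels in both classes at first and then parted. On day 2 it was at 6.59, 7.30, 4.42 and 8.03 TPM in high purity wells and at 9.16, 8.57, 8.84 and 11.1 TPM in low purity wells. Ranges on day 4 were 10.1 to 12.8 TPM and 14.3 to 16.4 TPM, a ratio of means of 1.37. On day 6 it was at 1.39 to 2.76 TPM in high purity wells, all below those of day 4, and at 43.0 to 63.6 TPM in low purity wells, all above those of day 4. On day 16 the 3 low purity wells held 88.0, 76.9 and 73.0 TPM and the 3 high purity wells 0.945, 0.945 and 0.942 TPM, a difference of -5.29 (SE 0.156).

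PRELP, a basement membrane anchor that binds collagen and heparan sulfate, was lower than FMOD and had another course, with its highest mean on day 4 in high and on day 6 in low purity wells. On day 4 the ranges of 2.14 to 3.37 TPM (high) and 2.47 to 4.45 TPM (low) overlapped. On day 6 it was at 0.234 to 0.777 TPM and at 5.74 to 6.33 TPM, a difference of -2.24 (SE 0.143). On day 16 the low purity wells held 1.29 to 1.66 TPM. KERA, the keratan sulfate proteoglycan of the cornea, had at most 2 reads in any multi-omic well and at most 1 read in any RNA-only library. It did not reach the filter of 1 TPM in 3 libraries and was not fitted; 3 reads, the limit that a count of 0 allows for counting error, would be 0.183 to 0.527 TPM in the wells.

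DCN, which carries a single chondroitin or dermatan sulfate chain and binds transforming growth factor beta, followed LUM with a delay. On day 4, when LUM was already above 60 TPM, DCN was at 0.0401 to 0.227 TPM in low purity wells, with 1 to 5 reads each. On day 6 the low purity wells held 14.7, 11.7, 14.4 and 28.0 TPM, on day 8 61.7, 39.1, 45.3 and 68.5 TPM, and on day 16 154, 88.0 and 97.0 TPM. The highest value in any high purity well was 1.44 TPM, on day 13, below all low purity wells from day 6 on. The ratio of LUM to DCN in low purity wells was 36.4 ± 4.55 (SD, n = 4) on day 6, 11.0 ± 1.31 (SD, n = 4) on day 8, 6.44 ± 0.346 (SD, n = 4) on day 10, and 6.69 ± 1.21 (SD, n = 3) on day 16. The ranges did not overlap between days 6, 8 and 10, and they overlapped among days 10, 13 and 16.

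BGN, the close relative of decorin that also acts as a ligand of Toll-like receptors, had another course. On day 2 it was at 28.5, 38.9, 34.0 and 31.5 TPM in high purity wells and at 38.0, 35.9, 30.0 and 30.8 TPM in low purity wells. These ranges overlapped, and day 2 was the peak in both classes. On day 6 every high purity well was the higher, at 6.13 to 10.4 TPM against 2.66 to 4.87 TPM, as for 16.2% of all genes. On day 8 this was so again, at 7.37 to 9.39 TPM against 4.35 to 7.11 TPM, as for 11.5% of all genes. On day 16 the order had turned, with 15.3, 16.7 and 13.3 TPM in the low and 2.52, 5.77 and 4.84 TPM in high purity wells, a difference of -1.46 (SE 0.236). The wells of low purity lay above those of high purity on days 13 and 16, and on none of days 0 to 8.

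**Figure D2:**
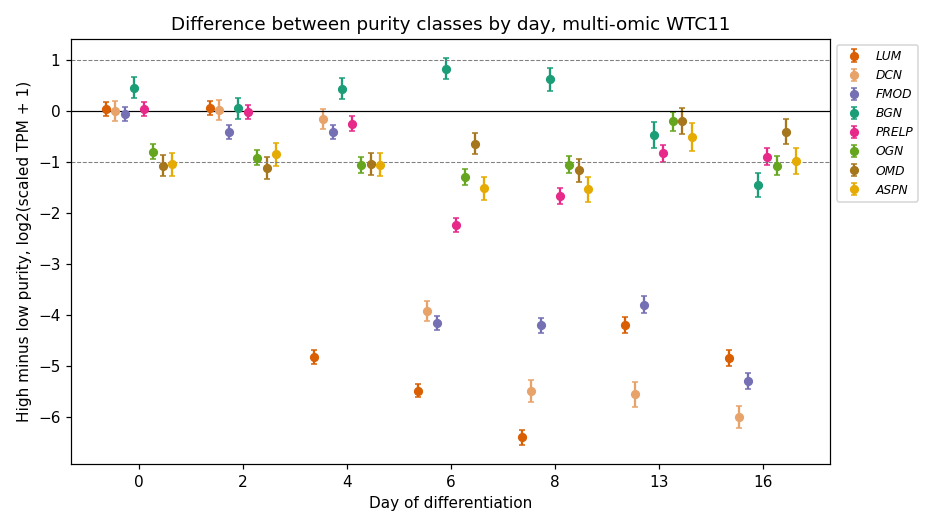
High minus low purity difference of the 8 fitted genes on each tested day in the multi-omic experiment, as log2 of scaled TPM + 1; bars are standard errors of the limma fit and dashed lines mark a difference of 1. LUM, DCN and FMOD lie at -3.80 or below from day 6 on, and BGN is above 0 on days 0 to 8 and at -1.46 on day 16.

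OGN, OMD and ASPN, the run on chromosome 9, had reads in undifferentiated cells, as did BGN, which was at 1.09 to 2.47 TPM in high and 0.566 to 1.39 TPM in low purity wells of day 0. Osteoglycin and osteomodulin were first found in bone, and asporin is a decorin relative without a sugar chain that can hold back transforming growth factor beta. On day 0 OGN was at 1.48 to 2.97 TPM (high) and 3.30 to 5.11 TPM (low), OMD at 0.534 to 1.54 and 2.04 to 3.97 TPM, and ASPN at 1.18 to 2.49 and 2.98 to 6.40 TPM. For each of the 3 genes every low purity well lay above every high purity well on that day. All 3 peaked on day 4 in both classes. OGN reached 2.85, 4.46, 5.40 and 5.31 TPM in the high purity wells, against 10.9, 10.8, 10.4 and 9.52 TPM. OMD reached 2.49 to 5.01 and 6.75 to 9.94 TPM, and ASPN 2.79 to 6.37 and 8.99 to 12.4 TPM. On day 16 OGN was at 0.519, 0.337 and 0.492 TPM against 2.54, 1.83 and 2.12 TPM, and OMD at 0.101 to 0.469 TPM against 0.619 to 0.855 TPM.

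**Figure D3:**
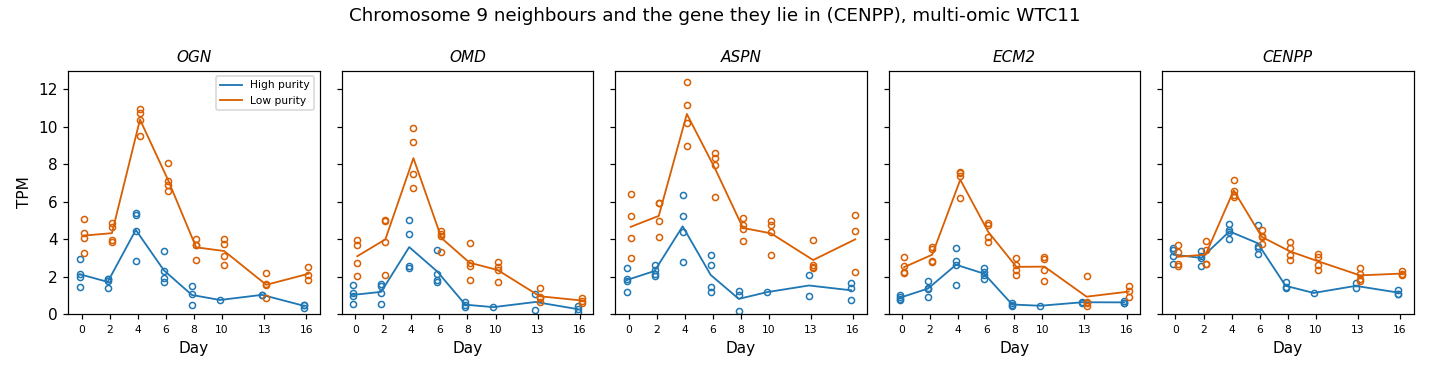
TPM (linear scale) against day of the 3 members on chromosome 9, their relative ECM2 and the gene that contains them, CENPP, in the multi-omic wells; circles are wells, lines join class means (blue high purity, orange low purity). All 5 genes are highest on day 4 in both classes, at 6.28 to 7.17 TPM for CENPP in low purity wells.

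Over the 56 multi-omic libraries Pearson's r of log2(TPM + 1) was 0.93 between OGN and OMD, 0.89 between OGN and ASPN and 0.90 between OGN and ECM2. The r of CENPP was 0.83 to OGN, 0.80 to OMD and 0.68 to ASPN. Its level on day 4 was 4.02 to 4.82 TPM (high) and 6.28 to 7.17 TPM (low), and its part in the levels of the genes inside it was not tested. LUM and DCN, neighbours on chromosome 12, had an r of 0.89, and FMOD, on chromosome 1, had 0.82 to LUM and 0.84 to DCN. Between OGN, OMD or ASPN and LUM, DCN or FMOD the values ran from -0.10 (OMD and DCN) to 0.47 (ASPN and FMOD). PRELP had 0.80 to FMOD, 0.76 to LUM and 0.55 to OGN, and BGN had 0.36 to FMOD and -0.04 to LUM. In the 24 RNA-only libraries r was 0.75 between OGN and OMD, 0.88 between OGN and ASPN, 0.80 between OGN and CENPP and 0.78 between LUM and DCN. These values describe libraries that share differentiations, classes and days, and they carry no p.

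**Figure D4:**
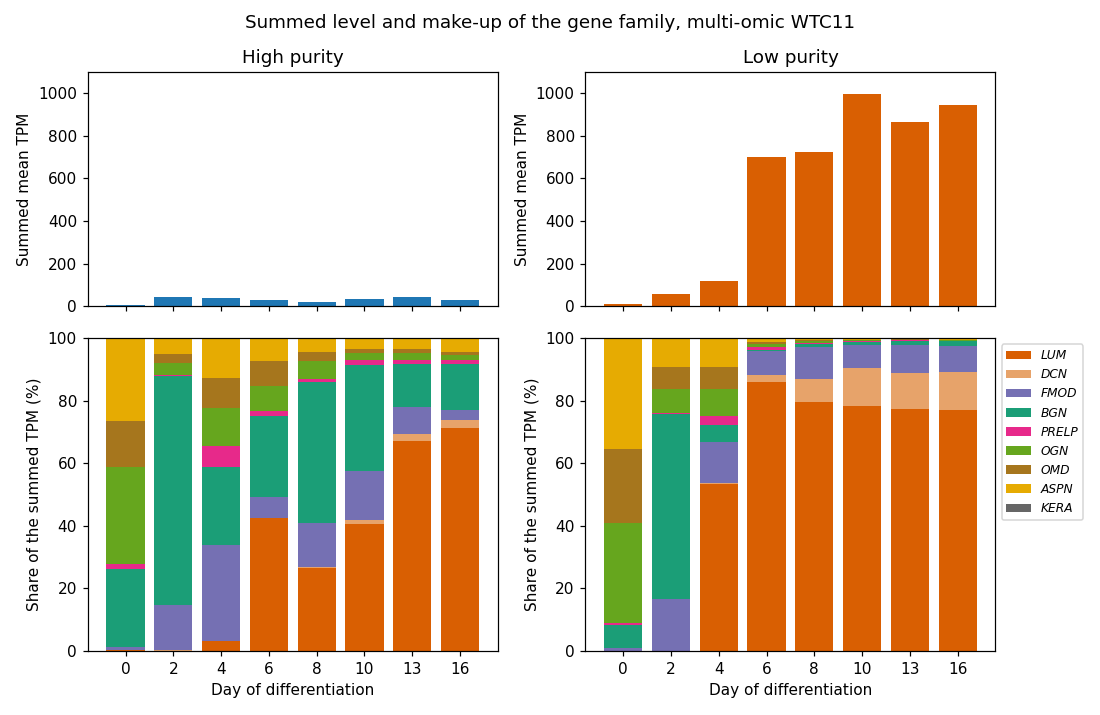
Sum of the mean TPM of the 9 genes by day (upper panels) and the share of each gene in that sum in percent (lower panels), for high and low purity wells of the multi-omic experiment. BGN leads on day 2 in both classes, and LUM makes up at least 75.3% of the sum in each low purity well from day 6 on.

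Summed over the 9 genes, the family held 6.62 to 7.60 TPM on day 0, 40.9 to 50.6 TPM on day 2 and 25.3 to 32.3 TPM on day 16 in high purity wells. In low purity wells these were 9.68 to 15.9, 51.0 to 59.3 and 837 to 1081 TPM. On day 0 OGN led in high purity wells (30.7% of the sum on average) and ASPN in low purity wells (34.9%). On day 2 BGN led, with 73.1% and 59.1%. On day 16 LUM led, with 67.6 to 75.5% in high and 75.3 to 79.1% in low purity wells, so that the ranges of its share overlapped while the sums did not. On day 16 the low purity levels ran in the order LUM, DCN, FMOD, BGN, ASPN, OGN, PRELP, OMD, KERA. DCN and FMOD met at 88.0 TPM, ASPN (2.26 to 5.28 TPM) and OGN (1.83 to 2.54 TPM) overlapped, and the other neighbours in that order did not.

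The number of members past the threshold used for all genes (adjusted p under 0.05 and a log2 difference of at least 1, of 8 fitted) is given beside the share of all 25664 genes past it in the same direction. All members past it were higher in low purity wells. There were 2 on day 0 (ASPN and OMD; 0.826% of all genes), 1 on day 2 (OMD; 3.08%), 4 on day 4 (LUM, OGN, ASPN and OMD; 4.22%), 6 on day 6 (5.19%), 7 on day 8 (7.50%), 3 on day 13 (LUM, DCN and FMOD; 6.23%) and 5 on day 16 (LUM, DCN, FMOD, BGN and OGN; 7.65%). On day 16 ASPN lay just outside at -0.996 and OGN just inside at -1.08. The wells of low purity lay above all wells of high purity for 3, 4, 6, 6, 7, 6 and 8 of the 8 genes on these days, against 5.16%, 18.3%, 15.8%, 14.5%, 30.7%, 32.5% and 32.1% of all genes. Members were chosen on this contrast, and nothing is read from these counts. The counts of days 0, 2 and 4 rest on single wells: 0 members passed on day 0 without well 4 of high or well 1 of low purity and 1 without well 3 of low purity, 0 on day 2 without well 2 of high purity, and 1 on day 4 without well 1 of high purity.

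The change with time inside the high purity differentiation was not part of the choice and was tested with limma over all genes. Between day 0 and day 16, 4 of 8 members changed, against 35.4% of all genes. This count was 7 with edgeR on recovered reads, 7 with a pseudocount of 0.1 TPM and 2 without scaling between libraries. LUM rose by 4.72 on the log2 scale (SE 0.143, limma adjusted p = 2.96e-30), BGN rose by 1.15 (SE 0.22, adjusted p = 1.24e-05) and FMOD rose by 1.03 (SE 0.146, adjusted p = 3.64e-08), while OGN fell by 1.05 (SE 0.169, adjusted p = 5.16e-07). LUM thus also rose in the cultures that ended with many cardiomyocytes. The other 3 calls lay close to the threshold of 1: without well 2 of day 16 BGN was at 0.998 and OGN at -0.96, and without well 3 of day 0 FMOD was at 0.995 and OGN at -0.94. DCN was at 0.877 (SE 0.209), under the fold threshold, with 12 to 37 reads per well on day 16 and 0 on day 0. It reached the filter of 1 TPM in 3 libraries only through the low purity wells. Its highest value in a high purity well was 1.44 TPM, on day 13, and the other wells of this class were under 1 TPM. The changes of DCN over time in high purity are therefore a description with no test.

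Between neighbouring days other members moved. From day 0 to day 2, 2 of 8 members rose (16.7% of all genes changed): BGN by 3.66 (limma adjusted p = 4.74e-20) and FMOD by 2.85 (adjusted p = 1.5e-22). From day 2 to day 4, 3 changed (13.7%): PRELP rose by 1.54 (limma adjusted p = 1.32e-12), LUM rose by 1.06 (adjusted p = 4.07e-09) and BGN fell by 1.86 (adjusted p = 1.31e-10). From day 4 to day 6, 3 changed (7.96%): LUM rose by 2.48 (limma adjusted p = 4.58e-20), FMOD fell by 2.13 (adjusted p = 1.42e-17) and PRELP fell by 1.29 (adjusted p = 3.45e-10). From day 6 to day 8, 0 members passed the threshold in limma (5.58%), although 5 had an unadjusted p under 0.05 and LUM was at -0.957 (SE 0.143, limma adjusted p = 5.85e-07); edgeR on reads recovered from the TPM called 4. LUM rose by 2.49 between days 8 and 13 (limma adjusted p = 1.32e-15; 8.12% of all genes changed), and FMOD fell by 1.31 between days 13 and 16 (limma adjusted p = 6.18e-07; 1.91%), with 2 wells on day 13. With edgeR on recovered reads the counts were 5 between days 2 and 4, 5 between days 4 and 6 and 2 between days 8 and 13. Leaving out well 1 of day 4 gave 5 calls between days 2 and 4 (OGN at 1.06 and OMD at 1.08 were added). Leaving out any of 5 single wells of days 6 and 8 gave 1 between those days. Without well 2 of day 13, which left 1 well, DCN was at 1.26 between days 8 and 13.

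In low purity wells, given as a description, BGN and FMOD again came first and LUM and DCN later. On the log2 scale the later day minus the earlier was 4.06 for BGN and 3.21 for FMOD between days 0 and 2, 5.94 for LUM and 1.77 for PRELP between days 2 and 4, and 3.83 for DCN, 3.13 for LUM and 1.61 for FMOD between days 4 and 6. FMOD was the member whose step between days 4 and 6 had opposite signs in the classes at more than 1 on the log2 scale in each.

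**Figure D5:**
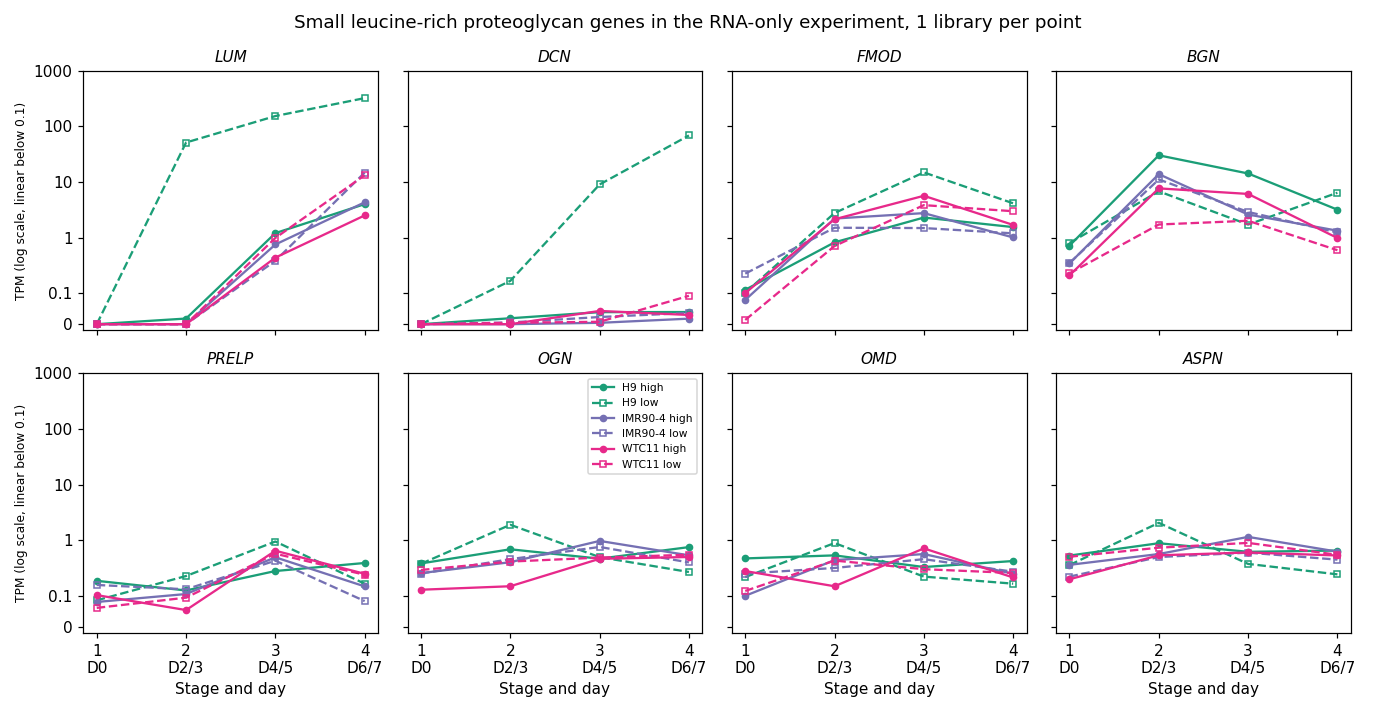
TPM (log scale, linear below 0.1) of 8 members at the 4 stages of the RNA-only experiment; each point is 1 library, colours are cell lines, filled circles with solid lines are high purity and open squares with broken lines low purity differentiations. H9 low purity stands apart for LUM and DCN from stage 2 on, and LUM is highest at stage 4 in all 6 differentiations.

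The RNA-only experiment holds the same genes in 3 lines, with a high and a low purity differentiation of each. The members were listed as high in low purity with earlier results known, so the class p-values here are not independent of the choice. At the last stage LUM was at 322, 14.8 and 13.2 TPM in the low purity H9, IMR90-4 and WTC11 libraries and at 4.00, 4.32 and 2.51 TPM in the high purity ones. Each low purity library lay above the high purity library of its line and above all 3 high purity libraries; 16.2% of all genes were higher in low purity in 3 of 3 lines at that stage. The difference was -3.32 on the log2 scale (SE 1.54, edgeR unadjusted p = 0.0671, edgeR adjusted p = 0.451). It was -2.03 without H9, -4.42 without IMR90-4 and -4.11 without WTC11. A sign-flip test over 3 pairs of lines cannot give a two-sided exact p below 0.25.

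DCN was at 68.7 TPM in low purity H9 at the last stage, with 8670 reads, and at 0.0179 to 0.0918 TPM, 3 to 17 reads, in the 5 other libraries. Its difference of -7.60 (SE 2.92, edgeR unadjusted p = 0.0279, edgeR adjusted p = 0.357) therefore rests on H9; without that line DCN did not pass the filter on low counts. H9 low purity was also early: LUM was at 51.3 TPM at stage 2 there, with 2472 reads, and at 0 or 1 read in the 5 other libraries of that stage. The ratio of LUM to DCN in this differentiation was 307 on day 3, 17.0 on day 5 and 4.69 on day 7. FMOD at the last stage was at 4.14, 1.19 and 2.99 TPM in low and 1.55, 1.01 and 1.69 TPM in high purity H9, IMR90-4 and WTC11.

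At stage 2 BGN was at 30.2, 13.9 and 7.69 TPM in high purity and at 6.80, 11.1 and 1.72 TPM in low purity H9, IMR90-4 and WTC11, higher in high purity in 3 of 3 lines, as were 18.0% of all genes. The difference was 1.51 (SE 0.551, edgeR unadjusted p = 0.0188, edgeR adjusted p = 0.566). In the multi-omic wells BGN did not differ in this way on day 2, with a high minus low difference of 0.04 (SE 0.204). With edgeR, 0 of 8 members were called between classes at any stage, as were 0% of all genes; 0, 3, 1 and 1 members had an unadjusted p under 0.05 at stages 1 to 4, against 354, 1896, 1798 and 2876 of 23848 genes. DESeq2 and limma also called 0 members at each stage. OGN, OMD, ASPN and PRELP had no common direction: at the last stage PRELP was higher in high purity in 3 of 3 lines (15.4% of all genes), OGN and ASPN in 2 and OMD in 1.

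Change with stage was tested with edgeR with the 6 differentiations as blocks. Low purity differentiations are among these, and the members were listed as high in low purity. A rise in those blocks is therefore not independent of the choice. Against day 0, 7 of 8 members had risen at stage 2 (14.8% of all genes rose), 8 at stage 3 (20.5%) and 5 at stage 4 (23.4%), namely LUM, DCN, BGN, FMOD and OGN. With limma on log2(TPM + 1), 2, 3 and 3 members were called at these stages. DCN did not pass the filter on low counts without H9, so its calls at all 3 stages rest on that line, in which low purity held 23, 1703 and 8670 reads and high purity 3, 6 and 5. LUM had 0 reads in all 6 libraries of day 0 and was highest at stage 4 in 6 of 6 differentiations; its level there was at least 94.7-fold (high) and 5166-fold (low) higher than 3 reads of day 0 in H9, 90.0-fold and 286-fold in IMR90-4, and 40.7-fold and 263-fold in WTC11. BGN was highest at stage 2 in 5 of 6, with a rise of 4.77 over day 0 (SE 0.531, edgeR adjusted p = 1.35e-06). FMOD was highest at stage 3 in 5 of 6, with a rise of 5.40 (SE 0.552, edgeR adjusted p = 2.29e-07), and PRELP at stage 3 in 5 of 6, with a rise of 2.49 (SE 0.387, edgeR adjusted p = 2.46e-05). Without H9, 4 members were called at stage 2 and LUM was at -0.0582 there; without IMR90-4, 4 were called at stage 2 and 5 at stage 3.

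WTC11 at passage 69 gave the low purity differentiation in both experiments. The multi-omic wells of day 6 held 490.1 to 859 TPM of LUM and the RNA-only library 13.2 TPM, and for FMOD these were 43.0 to 63.6 TPM and 2.99 TPM. The tables were normalized separately and the kits select RNA in different ways, so these levels stand side by side with no test.

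Markers of the cell types that such cultures could hold were read on day 16. On that day 7.65% of all genes were called higher in low purity wells and 13.4% in either direction. Of 8 fitted stromal and fibroblast markers of 10, 5 were higher in low purity wells by limma (PDGFRB, THY1, TCF21, POSTN and FBLN1) and 0 in high; POSTN was at 239 against 19.3 TPM and TCF21 at 8.58 against 0.274 TPM. PDGFRA did not differ by the test (87.2 against 82.0 TPM, limma adjusted p = 0.344), PI16 stayed under 1 TPM, and DPT was at 0 in both classes. Under the fold threshold, GSN was at 55.1 TPM in low and 74.2 TPM in high purity wells (limma adjusted p = 1.85e-06). MFAP5, also under it, was at 5.66 TPM in low and 2.57 TPM in high purity wells (limma adjusted p = 0.00608). The list summed to 531 to 554 TPM in low and 190.5 to 209 TPM in high purity wells. Of 8 epicardial markers 7 were higher in low purity wells, with WT1 at 79.2 against 1.09 TPM and BNC1 at 218 against 10.2 TPM; the list summed to 421 to 574 and 20.9 to 25.8 TPM. Of 7 fitted smooth muscle markers of 8, 3 were higher in low purity wells (ACTA2, TAGLN and CNN1), while MYH11 was at 0. RGS5, NOTCH3, ABCC9 and KCNJ8 were not called, and of these KCNJ8 had the higher mean in high purity wells (8.35 against 6.35 TPM). The sums of the list were 1233 to 1365 TPM in low and 236 to 261 TPM in high purity wells. Of 8 cardiomyocyte markers 5 were higher in high purity wells, with sums of 12391 to 14403 against 4992 to 7282 TPM. MYH7, MYL7 and ACTC1 were not called. Mean TPM was higher in low purity wells for MYH7 (891 against 712 TPM) and MYL7 (2031 against 2003 TPM). For ACTC1 it was higher in high purity wells (1712 against 1393 TPM). The other lists were mixed. Of 6 endothelial markers 2 were higher in low purity wells (TEK, at 41.6 TPM in low purity wells, and KDR, 145 against 28.8 TPM) and 2 in high (CDH5, 4.76 against 0.399 TPM, and PECAM1, 2.59 against 0.097 TPM), with sums of 157 to 235 TPM in low and 35.4 to 40.8 TPM in high purity wells. Of 5 endoderm markers AFP was higher in low purity wells and SOX17 and FOXA2 in high, with sums of 464 to 1244 and 74.2 to 476 TPM. Of 8 fitted cartilage and skeletal markers of 9, RUNX2 was higher in low purity wells (14.6 against 1.28 TPM) and COL2A1 in high, with sums of 159 to 197 and 312 to 346 TPM. Of 6 pluripotency markers 0 were called by limma and 2 had an unadjusted p under 0.05. DPPA4, under the fold threshold at -0.947, was at 4.35 TPM in low and 1.63 TPM in high purity wells (limma adjusted p = 5.1e-07). The part of these cell types in the levels of the members was not tested.

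In the RNA-only libraries, marker levels differed by line. In low purity H9 on day 7, where LUM and DCN stood apart, the epicardial markers summed to 154 TPM, with WT1 at 39.5 TPM and BNC1 at 85.8 TPM, and the cardiomyocyte markers to 350.3 TPM. High purity H9 had 24.3 TPM, 0.193 TPM, 11.7 TPM and 1861 TPM for these. The sum of the stromal list went the other way, with 249.7 TPM in low and 419 TPM in high purity H9. PDGFRA made up most of it, at 169.6 and 339 TPM. The other stromal markers went both ways. POSTN (14.0 against 0.113 TPM) and TCF21 (6.14 against 3.61 TPM) were higher in low purity H9. FBLN1 (27.4 against 34.8 TPM) and GSN (9.47 against 17.9 TPM) were higher in high purity H9. The epicardial markers went both ways too. Besides WT1 and BNC1, TBX18 (17.7 against 0.825 TPM) and UPK3B (2.02 against 0 TPM) were higher in low purity H9. ALDH1A2 (7.90 against 9.89 TPM), UPK1B (0.298 against 0.770 TPM), MSLN (0.354 against 0.459 TPM) and ITLN1 (0.0507 against 0.504 TPM) were higher in high purity H9. The part of these cell types was not tested here either. The epicardial sum of the IMR90-4 and WTC11 libraries of that stage was 7.44 to 9.78 TPM in both classes, while LUM was 13.2 and 14.8 TPM in their low purity libraries.

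Other genes of the pathway, in lists of 77 genes made by function, were tested on day 16 with limma, where 13.4% of all genes were called. These lists were chosen with earlier results of these data known, and their p-values carry that limit. All 11 collagens that the family binds were called, 10 of them higher in low purity wells, with a list median of -2.52 against 0.00 for all genes. COL3A1, the fibrillar collagen of loose connective tissue, was at 5902 ± 1206 against 124 ± 10.4 TPM (SD, n = 3 each; difference -5.33, SE 0.267, limma adjusted p = 4.22e-21). COL6A3, a chain of the beaded collagen that binds decorin, was at 149 ± 24.5 against 3.51 ± 1.38 TPM (difference -4.94, SE 0.15, limma adjusted p = 1.58e-28). COL2A1, the cartilage collagen, was the exception, at 149 ± 20.4 in low and 312 ± 16.5 TPM in high purity wells (difference 1.29, SE 0.139, limma adjusted p = 1.23e-10). Collagen calls began on day 4, with 7 of 11 higher in low purity wells, against 4.22% of all genes in that direction. On that day LUM but not DCN was far apart. In the RNA-only experiment 0 of the 11 collagens were called between classes at any stage, as were 0% of all genes. There the high minus low list median was 0.07, -0.52, 0.19 and -0.35 at stages 1 to 4.

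Of the 12 enzymes that cleave or cross-link the matrix, 8 were called on day 16, 7 of them higher in low purity wells (list median -1.50). ADAMTS5, a protease that cuts proteoglycans, was at 32.1 against 1.21 TPM (difference -3.81, SE 0.145, limma adjusted p = 3.13e-25), and LOXL1, which cross-links collagen and elastin, at 37.8 against 4.72 TPM. LOXL4 was the 1 call in the other direction, at 1.09 (limma adjusted p = 7.47e-06), and fell to 0.98 and 0.82, under the threshold, without well 3 of high or well 1 of low purity. Of 13 signalling partners 11 were fitted and 4 called, all higher in low purity wells; CCN4, a matricellular protein that binds decorin and biglycan, was at 44.8 against 1.32 TPM (difference -4.22, SE 0.133, limma adjusted p = 4.91e-28), and TGFBR1, a receptor of transforming growth factor beta, at 155 TPM in low purity wells (difference -2.68).

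The enzymes that build the sugar chains are read against the 13.4% of all genes called on that day. Of 21 fitted enzymes for chondroitin and dermatan sulfate 2 were called, CHST11 higher in high (difference 1.16) and CHSY3 higher in low purity wells (difference -1.57), with a list median of -0.34. Of 10 enzymes for keratan sulfate 2 were called, B3GNT7 higher in high (1.39) and CHST2 higher in low purity wells (-1.68), with a median of -0.20. Of 5 fitted relatives of the family, PODN was called, at 3.29 TPM (high) against 0.953 TPM (low). 

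For each of the 8 fitted members, the 3 genes with the most similar course were found by Pearson's r over the 16 means of class and day, among 16958 genes that reached 5 TPM in a mean. LUM had IGF2 (r = 0.99), ENOX1 and COBLL1, and DCN had LOC105374557, TBX18-AS1 and the epicardial factor WT1, each at 0.99. FMOD had ANXA2 (0.97) and S100A10. OGN had LIN52 (0.97), ECM2 and LOC105375334, ASPN had LIN52 (0.94), ECM2 and LARGE-AS1, and OMD had ECM2 (0.98), LOC105378120 and LOC105375334, so that the neighbour ECM2 stood in the first 3 of all 3 genes of the run. BGN had TM9SF4 (0.92), NIPA1 and DCBLD1, and PRELP had KCNJ3 (0.95), GLCCI1 and NCOA1. These likenesses are descriptions over means that share 2 differentiations. Of the 24 pairs of a member and a gene, in which some genes recur, 7 stayed among the first 3 by Spearman's rho, and 1 over the 8 low purity means. The pairs with ECM2 were among those kept by Spearman's rho.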

How the data were processed

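RNA was measured in 80 libraries. Per the submitters' processing notes, STAR 2.5.3a, featureCounts 2.0.3 and hg38 were used; the strand setting is not given in the sources used here. The authors deposited TPM and read counts per gene for both experiments. Among 56 multi-omic count columns, 0 gave the TPM column of the same name, 50 gave a TPM column of another name and 6 gave none. The TPM names were used, since 54 of 55 TPM columns, against 28 of 55 count columns, lay nearest to a library of their own group. Reads behind the TPM were recovered for 37221 genes (whole within 0.05 reads). From the RNA-only counts, 36 broken lines touching 6 genes were left out.

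Multi-omic TPM were scaled by TMM and tested as log2(TPM + 1) with limma 3.58.1 (R 4.3.3), on the 25664 genes that reached 1 TPM in 3 or more libraries, with 16 group means and 40 residual degrees of freedom. Fold changes on this scale understate the change of low genes. Day 10, with 1 high purity well, was not tested. RNA-only counts were tested with edgeR 4.0.16 (quasi-likelihood, TMM, 23848 genes), between classes with a mean per line and stage (8 residual degrees of freedom) and between stages with the differentiation as a block (15). A call needed a Benjamini-Hochberg adjusted p under 0.05 over all genes and an absolute log2 change of at least 1. DESeq2 1.42.0, limma, edgeR on recovered reads, another pseudocount, and other filters and scalings were alternatives. Each multi-omic library was also left out in turn, except those of day 10. In the RNA-only experiment a whole cell line was left out at a time. The fits were tested on simulated data. Deviations of wells with the same number correlated at -0.03 to 0.03, between classes on each tested day and between days 0 and 16 of high purity. The numbers were not used to pair wells in the main fit. Wells of neighbouring days were not compared in this way. Limits from a count of 0 (3 reads) cover counting error only. Members and lists were chosen with earlier results of these data known; named genes were, per pathway list, at most the 2 called with the largest increase and the 2 with the largest decrease on day 16, and the 3 genes most like each member, of which 1 is not reported here. Cell type markers were named as examples after their values were seen.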

Additional observations from a re-analysis of the deposited data

Results flagged for a closer look

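In 2 of 70 groups of 4 wells, a single well stood far from the other 3 by Dixon's test, which chance does in about 1 of 20 groups. LUM in low purity wells on day 6 had its highest well at 859 TPM, with the others at 490.1 to 545 TPM. The gap was 0.852 of the range, and without that well the high minus low difference of the day was -5.29. ASPN in low purity wells on day 13 had its highest well at 3.96 TPM, with the others at 2.47 to 2.64 TPM, a gap of 0.889 of the range.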

How the results depend on the processing

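Depth limits DCN outside low purity H9 (3 to 17 reads at stage 4), KERA, and LUM on days 0 and 2. With the replicate block, the counts of members stayed at 2, 1, 4, 6, 7, 3 and 5 by day, 4 between days 0 and 16 of high purity, and 28 for the pathway lists. Leaving out 1 library gave 0 to 2 members on day 0, 0 to 1 on day 2 and 1 to 4 on day 4. In high purity wells it gave 2 to 5 between days 0 and 16, 3 to 5 between days 2 and 4 and 0 to 1 between days 6 and 8. The 5 between days 0 and 16 includes DCN, at 1.05 without well 1 of day 16. In the RNA-only stages, leaving out a line gave 4 to 7 members at stage 2 and 5 to 7 at stage 3.

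Taking the multi-omic counts by their own column names, which conflict with the TPM, 5 members passed on day 0. The same choice gave 2 each for days 2 and 8, and 0 for day 16. In high purity wells it gave 4 between days 0 and 2, 0 between days 4 and 6, 3 between days 8 and 13 and 0 between days 13 and 16, and for the pathway lists 0. There the high minus low difference of LUM was -4.63 on day 0 and -6.80 on day 2, of DCN -7.39 on day 2 and 4.52 on day 8, of BGN 0.25 on day 16, of FMOD 3.35, PRELP 0.78 and OMD 0.0589 on day 8. On day 16 CHST2 was at 0.90, COL2A1 at -1.16, LOXL4 at -0.92, LOXL1 at 0.57 and TGFBR1 at 0.0502. The changes in high purity were, for LUM, -6.01 (days 0 to 16), -4.32 (0 to 2), -1.74 (4 to 6) and -13.97 (8 to 13); for DCN -12.91 and BGN 3.92 (8 to 13); for FMOD 0.21 (13 to 16); for OGN 1.41 (0 to 16), 2.70 (0 to 2) and -1.39 (2 to 4); for ASPN -1.51 and PRELP -2.81 (2 to 4); and for OMD 1.91 (0 to 16). Without line H9, LUM was at -0.0582 between stages 1 and 2, and without WTC11 at 11.4858.

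With edgeR on recovered reads, 3 members passed on day 2, 7 between days 0 and 16, 5 between days 2 and 4, 5 between days 4 and 6, 4 between days 6 and 8 and 2 between days 8 and 13. With a pseudocount of 0.1 these were 3 on day 2, 8 on day 16, 7 (0 to 16), 5 (2 to 4), 3 (6 to 8) and 3 (8 to 13). With no fold threshold they were 4 on day 2, 7 (2 to 4), 5 (4 to 6), 5 (6 to 8), 3 (8 to 13) and 52 pathway genes. Without scaling they were 1 on day 0, 2 (0 to 16) and 2 (6 to 8). With limma, 2, 3 and 3 members passed at RNA-only stages 2, 3 and 4. Of the 24 pairs of a member and a gene found most alike, 7 were kept by Spearman's rho and 1 over low purity means. The cause of these changes was not tested.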
